A study of Homo sapiens with 36 samples.

Results

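The 9 genes described here make and load HLA class I molecules: the heavy chains HLA-B, HLA-C and HLA-E, the shared light chain B2M, the peptide transporter subunits TAP1 and TAP2, the loading chaperone TAPBP (tapasin), and the immunoproteasome subunits PSMB8 and PSMB9. They were picked by gene name, as 9 of the 58883 genes that remained after the numbered copies of each gene had been joined. In each library the 9 genes are spread over 59 entries, because the annotation lists several copies of most of them, and the values given are FPKM (fragments scaled by gene length and by the number of mapped fragments) summed over the copies. All 9 genes passed the filter on low values (a mean of at least 1 FPKM over the libraries of a fit) in H1975, H820 and A549. In H3255 PSMB9 lay below it, so 8 of the 9 were tested there.

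The libraries come from 4 human non-small cell lung cancer lines, H3255 (EGFR L858R), H1975 (EGFR L858R and T790M), H820 (EGFR with a deletion in exon 19 and T790M) and A549, whose EGFR is wild type. Cells received 1 of 3 treatments for 24 h: MinE07, an RNA aptamer that binds EGFR, at 3 µM; C36, a control aptamer in an extended version, at 3 µM; or vehicle, which was DPBS with magnesium. There were 3 libraries in each of the 12 groups, 36 in all, and the series record calls the experiments biologically independent. All groups were treated in medium with 1% serum, RPMI for H3255, H1975 and H820 and DMEM for A549, so medium and line cannot be told apart where A549 is compared with the others. EGFR genotype and cell background also change together from line to line.

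HLA class I molecules carry short peptides from inside the cell to its surface, where CD8+ T cells and natural killer cells read them. The proteasome cuts proteins into peptides, TAP moves the peptides into the endoplasmic reticulum, and tapasin holds the empty heavy chain and B2M beside TAP until a peptide fits. Interferon-γ raises most of these genes through IRF1, and the transactivator NLRC5 acts on their promoters.

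RefSeq (GRCh38.p14) gave a promoter for 8 of the 9 genes. The 160 bases before the annotated start are shown for 6 of them because these hold matches to the letters of elements known to regulate class I genes. Capitals mark TTTC followed, after 2 bases of any kind, by a further TTTC (the long form) or by TTC (the short form), the core of the interferon-stimulated response element, on either strand, and TGACGC, also on either strand, the letters of the X2 box at which the NLRC5 complex assembles on class I promoters. Each sequence runs 5′ to 3′ along the gene, and for TAP1 the first of 2 entries is shown.
HLA-B, chr6:31357180-31357339, minus strand: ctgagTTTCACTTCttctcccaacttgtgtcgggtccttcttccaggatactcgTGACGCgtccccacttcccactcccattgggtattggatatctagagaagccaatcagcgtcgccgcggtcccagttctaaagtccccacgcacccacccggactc
HLA-C, chr6:31272093-31272252, minus strand: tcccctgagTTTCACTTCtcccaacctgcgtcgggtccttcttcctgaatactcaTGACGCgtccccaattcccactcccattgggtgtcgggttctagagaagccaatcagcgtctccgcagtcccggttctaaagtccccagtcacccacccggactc
B2M, chr15:44711357-44711516, plus strand: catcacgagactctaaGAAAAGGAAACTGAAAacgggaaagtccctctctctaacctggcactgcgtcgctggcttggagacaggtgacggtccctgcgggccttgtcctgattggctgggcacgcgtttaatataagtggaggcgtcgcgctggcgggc
TAP1, chr6:32853705-32853864, minus strand: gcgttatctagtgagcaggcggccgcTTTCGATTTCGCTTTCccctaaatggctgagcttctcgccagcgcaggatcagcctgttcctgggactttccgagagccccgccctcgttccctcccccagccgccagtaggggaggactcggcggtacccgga
TAP2, chr6:32838740-32838899, minus strand: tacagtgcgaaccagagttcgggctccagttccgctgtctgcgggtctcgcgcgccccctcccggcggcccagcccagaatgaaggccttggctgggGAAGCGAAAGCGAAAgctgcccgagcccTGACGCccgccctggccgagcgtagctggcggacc
TAPBP, chr6:33314079-33314238, minus strand: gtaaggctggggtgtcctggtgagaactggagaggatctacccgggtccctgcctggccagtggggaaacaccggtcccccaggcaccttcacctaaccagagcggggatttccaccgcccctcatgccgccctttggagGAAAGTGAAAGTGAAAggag
The long form occurred in B2M, TAP1, TAP2 and TAPBP, 4 of 8 genes, and in 1.88% of 35114 RefSeq promoter windows of the same length. The short form occurred in HLA-B, HLA-C and TAP2, where it overlaps the long form, and in 3.98% of all windows. TGACGC occurred in HLA-B, HLA-C and TAP2 and in 5.79% of all windows, and CCAAT, which was also searched on either strand and is left in lower case, occurred in HLA-B, HLA-C and B2M and in 24.5% of all windows. The windows of PSMB9 and of both annotated starts of PSMB8 held none of these letters. A match is a description of the letters and no measure of binding.

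In GENCODE 29 (GRCh38), 8 of the genes lie on chromosome 6 in the major histocompatibility complex and B2M lies on chromosome 15. HLA-E spans chr6:30489467-30494205. TAP2, PSMB8, TAP1 and PSMB9 lie side by side from position 32821833 to 32859585, and the RefSeq starts of TAP1 (position 32853704) and PSMB9 (32854192) are 488 bases apart on opposite strands. The GENCODE spans of PSMB9 and TAP1 overlap, as do those of PSMB9 and PSMB8. The GENCODE spans of HLA-B (chr6:31269491-31357188) and HLA-C (chr6:31268749-31272130) overlap on the same minus strand, though their RefSeq starts lie at positions 31357179 and 31272092. Whether the annotation that was counted has these overlaps was not checked. Where it does, reads on opposite strands could reach the other gene if strand was not used in counting, and strand cannot separate reads on the same strand. Whether strand was used is not given in the sources used here. HLA-B and HLA-C are similar in sequence and highly variable between people, so their levels also depend on how reads were shared between them and how well each line's alleles match the reference.

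Across the series, the summed FPKM ran from 362928 to 449811 per library, and relative depth, read from the FPKM that a single fragment is worth, ran from 0.591 to 1.39 of the median library, a 2.35-fold range. Absolute depth is unknown, so no counting interval is given. The epithelial markers EPCAM, CDH1, KRT7, KRT8, KRT18 and KRT19 were all above 1 FPKM in every line. Of 8 leukocyte markers, none reached a mean of 1 FPKM in H3255, CD14 did in H820 and A549, and CD14, CD79A and CSF1R did in H1975, where PTPRC stayed at or below 0.0828 FPKM. Of 5 fibroblast markers, COL1A1 reached it in H3255, PDGFRB and COL1A1 in H1975, LUM in H820 and none in A549. LUM read 35.4 to 45.8 FPKM in H820 and at most 0.139 in the other lines. No endothelial marker reached it in any line.

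The lines differed widely in how much class I machinery they expressed with vehicle alone. H3255 was the lowest line for 6 of the 9 genes (HLA-B, HLA-E, B2M, TAP2, PSMB8 and PSMB9) and A549 the highest for all but HLA-B. Every value is a share of a library's RNA, so fewer expressing cells and less RNA per cell cannot be told apart.

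Among the heavy chains, which present the peptide, HLA-B averaged 169 ± 8.34 FPKM in H1975, 125 ± 22.2 in A549, 60.8 ± 1.22 in H820 and 9.49 ± 0.272 in H3255 (SD, n = 3 each), a 17.8-fold range. HLA-C was ordered differently, at 276 ± 19.0 in A549, 222 ± 4.66 in H820, 97.9 ± 0.529 in H3255 and 57.1 ± 5.58 in H1975. HLA-E, the heavy chain read by NKG2A and NKG2C on natural killer cells, covered a 3.05-fold range, from 24.3 ± 0.633 in H3255 through 33.7 ± 0.954 in H1975 and 38.7 ± 0.696 in H820 to 74.0 ± 8.80 in A549. No line was low for all heavy chains. H3255, lowest for HLA-B and HLA-E, stood above H1975 for HLA-C.

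B2M, which HLA-B, HLA-C and HLA-E need to fold, averaged 1089 ± 168 FPKM in A549, 538 ± 9.76 in H1975, 329.5 ± 1.10 in H820 and 107 ± 4.51 in H3255, a 10.2-fold range. TAP1 stood at 62.8 ± 6.99 in A549 against 9.18 ± 0.555 in H1975, 2.88 ± 0.0933 in H3255 and 2.71 ± 0.0575 in H820. TAP2, its partner in the transporter, ran from 22.4 ± 1.07 in A549 through 12.8 ± 0.178 in H1975 and 9.49 ± 0.346 in H820 to 2.11 ± 0.222 in H3255. TAP1 thus spread 23.1-fold over the lines and TAP2 10.6-fold. TAPBP varied least, by 1.81-fold, from 26.1 ± 1.09 in H1975 to 47.0 ± 3.78 in A549, with H3255 at 32.8 ± 0.568 and H820 at 34.2 ± 0.917.

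The immunoproteasome subunits varied widely too. PSMB8, which takes the place of PSMB5 when an immunoproteasome forms, averaged 53.8 ± 7.66 FPKM in A549, 30.7 ± 3.04 in H1975, 19.5 ± 0.151 in H820 and 2.84 ± 0.133 in H3255, a 19.0-fold range. PSMB9, which takes the place of PSMB6, averaged 29.8 ± 5.30 in A549, 11.6 ± 0.444 in H1975 and 3.76 ± 0.231 in H820. In H3255 its 3 vehicle libraries read 0.0838, 0.0351 and 0.0834 FPKM, too near the lower end of the scale for a fold.

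In limma on log2(FPKM + 0.5), with Benjamini-Hochberg adjustment over all genes tested, 9 of 9 genes differed at an adjusted p under 0.05 in H3255 against H1975 (where 84.6% of all genes did), H3255 against A549 (85.7%), H1975 against H820 (82.6%), H1975 against A549 (82.8%) and H820 against A549 (84%). In H3255 against H820, 7 of 9 differed, beside 84.9% of all genes. The exceptions were neighbours in the order of lines. TAP1 was 0.07 log2 higher in H3255 than in H820 (adjusted p = 0.32) and TAPBP 0.06 lower (adjusted p = 0.28). Most genes of any kind differed between these lines, so the calls are no mark of the class I genes. PSMB9 is counted in each pair with H3255, where its vehicle libraries read at most 0.0838 FPKM. It passed the filter of this fit only through the other lines, so its calls against H3255 add nothing to its levels.

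**Figure D1:**
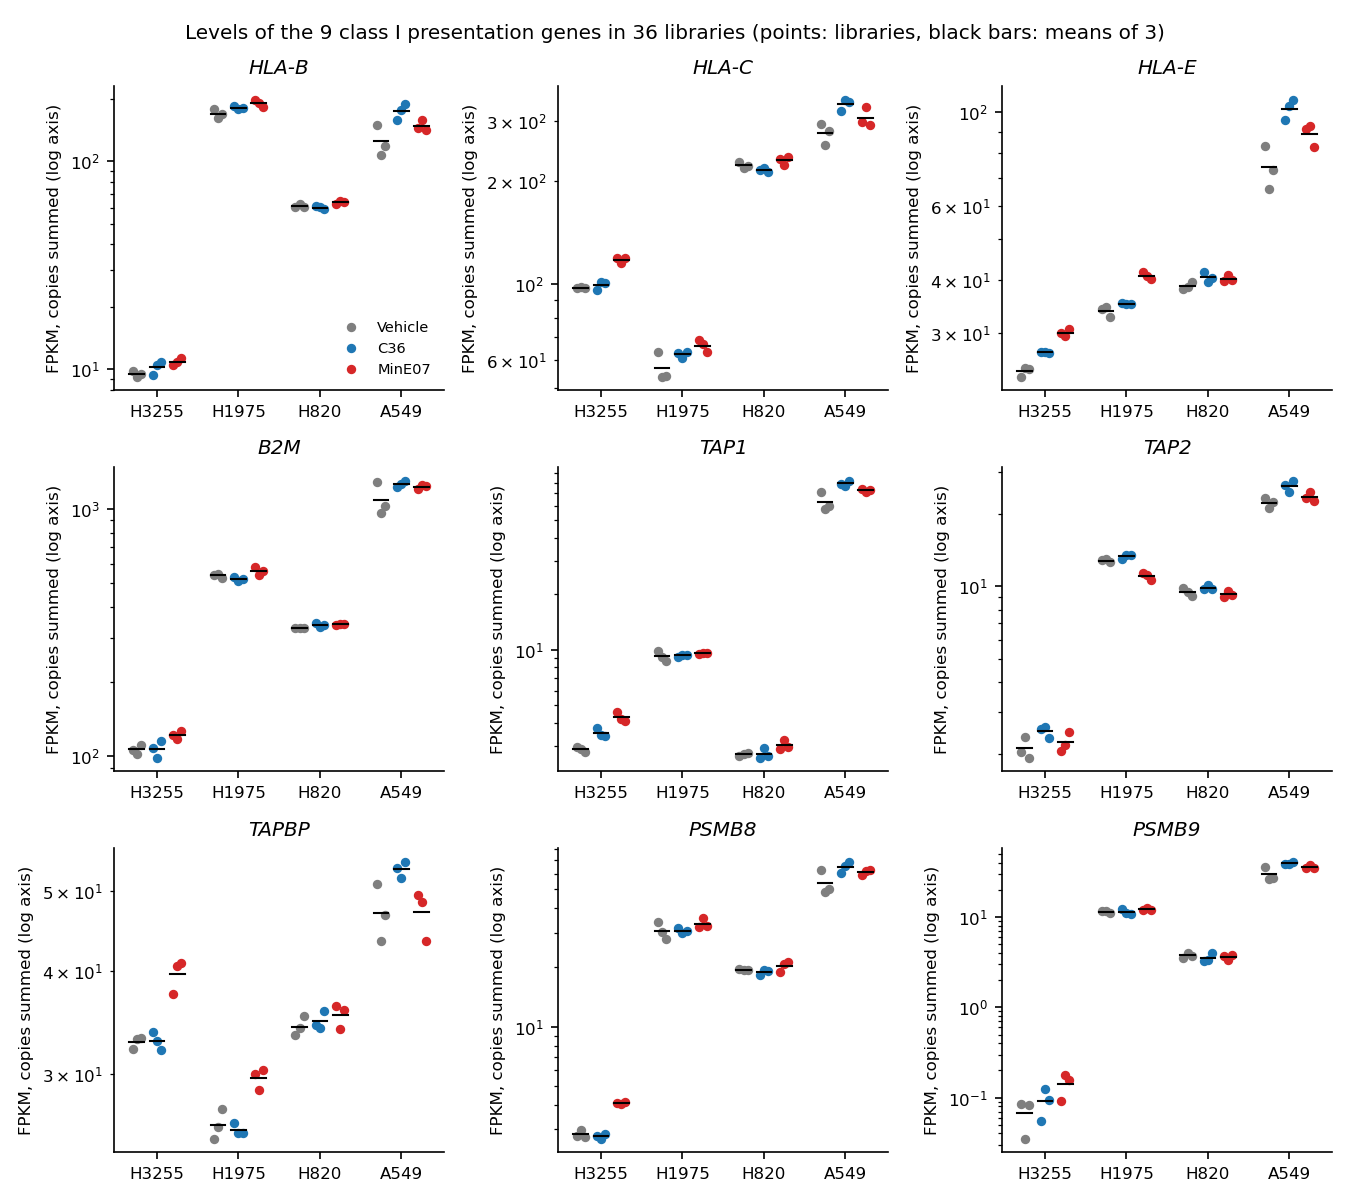
FPKM summed over copies (vertical log axis, one panel per gene) for every library, by cell line and treatment, with black bars at the means of 3 libraries. A549 is highest in each panel but HLA-B, H3255 is lowest in 6 panels, and within H3255 the MinE07 libraries of PSMB8 (4.04 to 4.13) lie above all other H3255 libraries.

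In H3255, the line with L858R alone, most class I genes were higher with MinE07 than with the control aptamer: HLA-C, HLA-E, B2M, TAP1, TAPBP and PSMB8 rose, by 1.11-fold to 1.40-fold, while HLA-B and TAP2 did not pass the test. These are 6 of 8 tested genes called, all higher, where 37.9% of all genes were called and 17.4% were called higher. In the same 6 genes the MinE07 and C36 libraries did not overlap, as in 50.8% of all genes. The median change of the 8 genes was 0.21 log2 against -0.01 over all genes tested. The count depends on summing the copies of a gene: from the unnumbered entries alone, or from the highest copy, 5 of the genes passed the filter and 3 were called, all higher. HLA-C lost its call in the first case (adjusted p = 0.218) and HLA-E in the second (adjusted p = 0.0724). Every single copy of PSMB8 (at most 0.62 FPKM on average) and of TAP1 (at most 0.715) in H3255 lay under the filter of 1 FPKM, so both were tested only through the sum of their 8 copies.

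HLA-C read 97.9, 98.4 and 97.3 FPKM with vehicle, 96.5, 102 and 101 with C36, and 119, 115 and 119 with MinE07. Its MinE07 libraries lay above the other 6, and the change from C36 was 0.24 ± 0.03 log2 (SE, adjusted p = 0.000122). HLA-E read 23.6, 24.8 and 24.5 with vehicle, 26.9, 27.0 and 26.8 with C36, and 30.0, 29.4 and 30.5 with MinE07. Its 3 groups did not overlap, and MinE07 exceeded C36 by 0.15 ± 0.03 log2 (adjusted p = 0.00254). HLA-B read 9.45, 10.5 and 10.8 with C36 and 10.5, 10.8 and 11.4 with MinE07, ranges that overlap, and its change was 0.09 ± 0.05 log2 (adjusted p = 0.212).

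B2M, the light chain, read 106, 103 and 111 FPKM with vehicle, 108, 98.9 and 115 with C36, and 122, 117 and 126 with MinE07, a change from C36 of 0.18 ± 0.05 log2 (adjusted p = 0.0217). The MinE07 libraries lay above the C36 libraries by less than the C36 libraries spread. The B2M call was lost when C36 replicate 1 or 2 or MinE07 replicate 1 or 3 was left out, with adjusted p between 0.0503 and 0.0782.

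TAP1, the transporter subunit, read 2.98, 2.89 and 2.79 FPKM with vehicle, 3.78, 3.45 and 3.43 with C36, and 4.58, 4.22 and 4.08 with MinE07. The groups stepped up without overlap, and MinE07 exceeded C36 by 0.24 ± 0.06 log2 (adjusted p = 0.00531). TAP2 did not follow, at 2.54, 2.58 and 2.32 with C36 and 2.06, 2.18 and 2.46 with MinE07, a change of -0.13 ± 0.08 log2 (adjusted p = 0.214). Tapasin (TAPBP) read 32.1, 33.1 and 33.1 with vehicle, 33.7, 32.9 and 32.1 with C36, and 37.5, 40.6 and 40.9 with MinE07. Vehicle and C36 shared 1 range for TAPBP and MinE07 lay above it, by 0.26 ± 0.04 log2 (adjusted p = 0.000317).

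PSMB8 changed most of the 8 genes. Its libraries read 2.79, 2.99 and 2.73 FPKM with vehicle, 2.78, 2.69 and 2.85 with C36, and 4.11, 4.04 and 4.13 with MinE07. The change from C36 was 0.49 ± 0.05 log2, or 1.40-fold (adjusted p = 1.97e-05), far beyond the spread within a group. PSMB9 stayed at trace levels, at 0.0544, 0.126 and 0.0933 with C36 and 0.0927, 0.177 and 0.155 with MinE07, and was not tested.

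Against vehicle, a comparison that shares the MinE07 libraries with the one above, 7 of 8 tested genes were called in H3255, all higher, beside 40.2% of all genes called and 22.4% called higher. TAP1 changed most, by 0.50 ± 0.06 log2 or 1.42-fold (adjusted p = 4.35e-05), then PSMB8 by 0.46 ± 0.05 (adjusted p = 2.52e-05) and HLA-E by 0.30 ± 0.03 (adjusted p = 2.78e-05). HLA-B was called here, at 0.19 ± 0.05 (adjusted p = 0.0125), and TAP2 was not, at 0.07 ± 0.08 (adjusted p = 0.507). B2M, at 0.19 ± 0.05 (adjusted p = 0.0166), lost its call when MinE07 replicate 3 or vehicle replicate 1 or 2 was left out, with adjusted p between 0.0504 and 0.0618. For C36 against vehicle limma called 0 of 8 genes in H3255, beside 0.542% of all genes. Of the 8 genes 3 had an unadjusted p under 0.05, beside 16.5% of all genes. These were TAP2 and, with smaller p, TAP1 at 0.26 ± 0.06 log2 (adjusted p = 0.0647) and HLA-E at 0.14 ± 0.03 (adjusted p = 0.0641), whose C36 libraries all lay above the vehicle libraries. The summed leukocyte markers in H3255 stayed between 0.167 and 0.307 FPKM over all 9 libraries, with MS4A1 at 0 in each. The sum of the 6 epithelial markers, all of which reached 1 FPKM, moved with treatment. It lay between 2179 and 2254 FPKM with vehicle, 2060 and 2105 with C36, and 1895 and 1948 with MinE07, groups that do not overlap. The sum does not speak for each marker. Over the 9 libraries KRT8 ran from 630 to 792.5 FPKM, KRT18 from 317.5 to 458.7, KRT7 from 335.4 to 368 and KRT19 from 253 to 296.5. EPCAM ran from 204 to 219.8 and CDH1 from 119.2 to 128.5. The part of these markers in the results in H3255 was not tested.

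**Figure D2:**
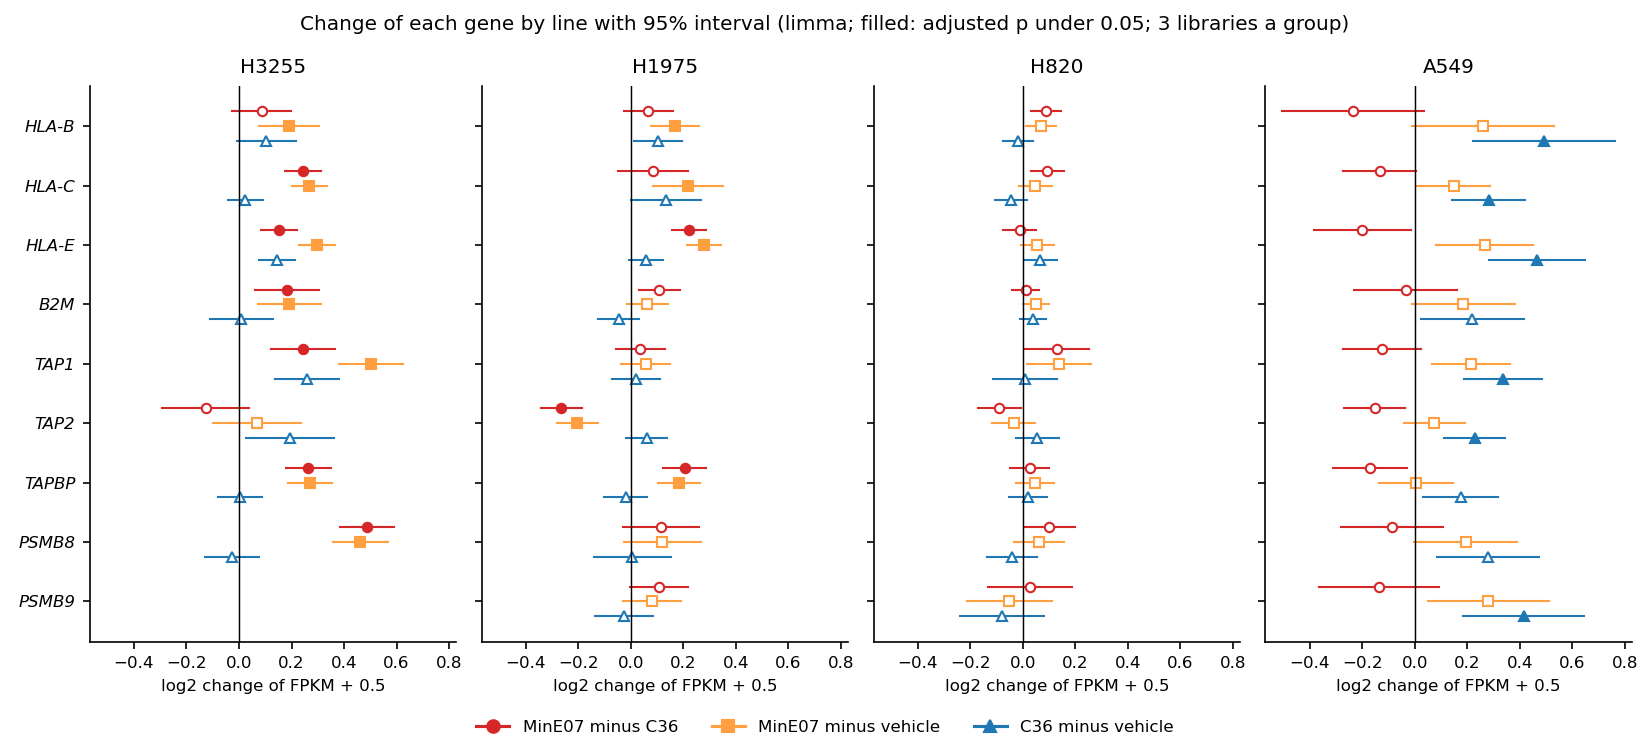
Log2 change of FPKM + 0.5 (horizontal axis) for each gene and comparison, one panel per line, with the estimate and its 95% interval from limma; filled symbols have an adjusted p under 0.05. For MinE07 against C36 the 6 filled symbols of H3255 lie right of 0, for the same comparison H1975 has HLA-E and TAPBP filled to the right and TAP2 to the left, H820 has no filled symbol, and in A549 the filled symbols are all C36 against vehicle.

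In H1975, which carries T790M beside L858R, HLA-E and TAPBP rose with MinE07 over C36 and TAP2 fell. That is 3 of 9 called, beside 21.4% of all genes (9.56% higher and 11.9% lower). HLA-E read 34.0, 34.5 and 32.7 FPKM with vehicle, 35.2, 35.0 and 35.1 with C36, and 41.7, 41.0 and 40.2 with MinE07, a change from C36 of 0.22 ± 0.03 log2 or 1.16-fold (adjusted p = 0.000725). TAPBP read 26.2, 25.4 and 25.4 with C36 and 30.0, 28.7 and 30.3 with MinE07, a change of 0.20 ± 0.04 log2 (adjusted p = 0.00344). For both genes every MinE07 library lay above every other H1975 library.

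TAP2 went the other way in H1975, reading 12.8, 12.9 and 12.6 FPKM with vehicle, 13.0, 13.6 and 13.5 with C36, and 11.4, 11.1 and 10.6 with MinE07. Its MinE07 libraries lay below the other 6, by 0.26 ± 0.04 log2 from C36 (fold 0.832, adjusted p = 0.00075). TAP1, its partner, read 9.17, 9.38 and 9.35 with C36 and 9.44, 9.61 and 9.60 with MinE07, a change of 0.04 ± 0.04 (adjusted p = 0.587). B2M was just outside the threshold, at 0.11 ± 0.04 (adjusted p = 0.0524), and was called without MinE07 replicate 2 (adjusted p = 0.0339) or vehicle replicate 1 (adjusted p = 0.0372). PSMB8 and PSMB9 were at 0.11 ± 0.07 (adjusted p = 0.247) and 0.11 ± 0.05 (adjusted p = 0.157).

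Against vehicle 5 of 9 genes were called in H1975, beside 24.8% of all genes. HLA-E rose by 0.28 ± 0.03 log2 (adjusted p = 0.00022) and TAPBP by 0.18 ± 0.04 (adjusted p = 0.00506), TAP2 fell by 0.20 ± 0.04 (adjusted p = 0.00261), and the classical heavy chains HLA-B, at 0.17 ± 0.04 (adjusted p = 0.0148), and HLA-C, at 0.22 ± 0.06 (adjusted p = 0.025), also rose. HLA-B lost its call without MinE07 replicate 1 or vehicle replicate 2, with adjusted p up to 0.0584, and HLA-C without either of these, MinE07 replicate 2 or vehicle replicate 3, with adjusted p from 0.0738 to 0.0866. The count was 3 without MinE07 replicate 1 or vehicle replicate 2. For C36 against vehicle limma called 0 of 9, beside 0.468% of all genes. At an unadjusted p under 0.05 there was 1 of 9, HLA-B, beside 14.7% of all genes. Without vehicle replicate 1, HLA-C was called at 0.21 log2 (adjusted p = 0.0273).

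In A549, with wild-type EGFR, HLA-B, HLA-C, HLA-E, TAP1, TAP2 and PSMB9 rose with the control aptamer over vehicle, while B2M, TAPBP and PSMB8 did not pass the test, and no gene was called between MinE07 and C36. That is 6 of 9 genes called for C36 against vehicle, beside 6.23% of all genes called and 3.7% called higher. In these 6 and TAPBP the groups did not overlap, 7 of 9 genes beside 29.7% of all genes. The median change of the 9 genes was 0.28 log2 against 0.01 over all genes tested. The count was 0 with no filter on low values, 2 with the replicate block and 3 from unnumbered entries.

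HLA-E in A549 read 83.3, 65.8 and 72.9 FPKM with vehicle, 95.6, 103 and 107 with C36, and 91.1, 92.6 and 82.7 with MinE07. C36 exceeded vehicle by 0.47 ± 0.08 log2 or 1.38-fold (adjusted p = 0.0142), without overlap. HLA-B read 149.9, 107 and 118 with vehicle and 158, 177 and 189 with C36, a change of 0.49 ± 0.12 (adjusted p = 0.0468), and HLA-C changed by 0.28 ± 0.06 (adjusted p = 0.0288). Vehicle replicate 1 stood above the other vehicle libraries for all 3 heavy chains.

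TAP1 read 70.8, 57.8 and 59.8 FPKM with vehicle, 79.0, 76.8 and 81.8 with C36, and 73.8, 71.3 and 72.8 with MinE07. It changed by 0.34 ± 0.07 log2 between C36 and vehicle (adjusted p = 0.0204), and TAP2 by 0.23 ± 0.05 (adjusted p = 0.0332). PSMB9, read at 35.9, 26.6 and 26.9 with vehicle and 38.7, 38.9 and 41.0 with C36, changed by 0.42 ± 0.10 (adjusted p = 0.0467). B2M (0.22 ± 0.09, adjusted p = 0.167), TAPBP (0.18 ± 0.06, adjusted p = 0.131) and PSMB8 (0.28 ± 0.09, adjusted p = 0.0891) did not pass.

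The A549 calls changed with single libraries. In vehicle replicate 1 all 9 genes were higher than the mean of the other vehicle libraries, by a median of 0.27 log2 against 0.02 over all genes, and without it 9 of 9 genes were called for C36 against vehicle. The count was 1 without C36 replicate 1, 0 without C36 replicate 2, C36 replicate 3 or vehicle replicate 3, 2 without vehicle replicate 2, 3 without MinE07 replicate 1, and 4 without MinE07 replicate 2 or 3.

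Between MinE07 and C36 limma called 0 of 9 genes in A549 and 0 of 12574 genes in all (0%). At an unadjusted p under 0.05 there were 3 of the 9 and 1392 of all genes. All 9 estimates lay below 0, from -0.03 ± 0.09 log2 for B2M to -0.23 ± 0.12 for HLA-B, with a median of -0.14. In 5 of the 9, HLA-E, TAP1, TAP2, TAPBP and PSMB9, every MinE07 library lay below every C36 library, beside 22.6% of all genes whose groups did not overlap in either direction. Against vehicle MinE07 gave 0 of 9 calls, beside 0.31% of all genes. Of the 9 genes 4 had an unadjusted p under 0.05, beside 13.9% of all genes. The largest change was PSMB9 at 0.28 ± 0.10 (adjusted p = 0.267), and 6 genes were called without vehicle replicate 1.

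In H820, with the exon 19 deletion and T790M, limma called none of the 9 genes in any comparison. The background was 0.0388% of genes for MinE07 against C36, 3.58% for MinE07 against vehicle and 3.24% for C36 against vehicle. Of the 9 genes 5, 3 and 1 had an unadjusted p under 0.05, beside 10.6%, 19.4% and 18.8% of all genes. HLA-B read 60.7, 60.4 and 58.9 FPKM with C36 and 62.6, 64.7 and 64.1 with MinE07, and HLA-C read 216, 218 and 213 against 232, 223 and 236. Their MinE07 libraries lay above the C36 libraries by 0.09 ± 0.03 log2 each (adjusted p = 0.302 and 0.314). PSMB8 read 18.2, 19.3 and 19.2 against 18.9, 20.7 and 21.4, which overlap. The 95% intervals of the 9 changes between MinE07 and C36 ran no lower than -0.17 (TAP2) and no higher than 0.25 (TAP1) log2.

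The lines were set against each other by interaction terms in a limma fit of all 36 libraries, first for MinE07 against C36. H3255 exceeded A549 in 6 of 9 genes, beside 26.3% of all genes. The differences of log2 changes were 0.57 ± 0.10 for PSMB8 (adjusted p = 3.61e-05), 0.44 ± 0.07 for TAPBP (adjusted p = 1.10e-05), 0.38 ± 0.07 for HLA-C (adjusted p = 0.000222), 0.37 ± 0.08 for TAP1 (adjusted p = 0.000779), 0.35 ± 0.07 for HLA-E (adjusted p = 0.000484) and 0.32 ± 0.11 for HLA-B (adjusted p = 0.0244). The first 5 kept their call whichever library was left out, and HLA-B kept it in 7 of 12 cases. PSMB9 is among the 9 in every pair with H3255, where it read at most 0.177 FPKM. It passed the filter of this fit only through the other lines, so its differences with H3255 are no test of a change there. None of them was called with all 36 libraries.

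H1975 exceeded A549 in 3 of 9 genes, beside 13.1% of all genes: HLA-E by 0.42 ± 0.07 log2 (adjusted p = 0.000199), TAPBP by 0.38 ± 0.07 (adjusted p = 0.000261) and HLA-C by 0.22 ± 0.07 (adjusted p = 0.0435), the last in 3 of 12 cases when 1 library was left out. H820 against A549 gave 0 of 9 in limma, beside 0.315% of all genes. At an unadjusted p under 0.05 there were 5 of 9, beside 12.4% of all genes. H3255 against H1975 gave 1 of 9, beside 15.8% of all genes. That gene was PSMB8, whose rise was 0.37 ± 0.10 log2 larger in H3255 (adjusted p = 0.00616). TAP1 joined it without H3255 C36 replicate 1 (0.25 log2, adjusted p = 0.0431). For TAP2, the change in H3255 minus that in H1975 was 0.14 log2 (95% interval -0.02 to 0.29, adjusted p = 0.252), and H1975 minus A549 was -0.11 (95% interval -0.27 to 0.04, adjusted p = 0.372).

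The lines were then compared in the change between C36 and vehicle. Relative to A549 it was lower in H3255 for 3 of 9 genes (HLA-B, HLA-C and HLA-E, beside 3.58% of all genes), in H1975 for 4 of 9 (HLA-B, HLA-E, TAP1 and PSMB9, beside 3.58%) and in H820 for 6 of 9 (HLA-B, HLA-C, HLA-E, TAP1, PSMB8 and PSMB9, beside 6.3%). For HLA-E the differences were -0.32 ± 0.07, -0.41 ± 0.07 and -0.40 ± 0.07 log2 (adjusted p = 0.0103, 0.00113 and 0.000877), and these kept their call whichever library was left out. H3255 against H1975 gave 0 of 9 in limma, beside 0.506%, and 1 of 9 at an unadjusted p under 0.05, beside 9.56%. These 3 sets of differences share the A549 libraries, and the C36 libraries enter the differences between MinE07 and C36 with the opposite sign. Without A549 vehicle replicate 1 the counts were 7, 7 and 8, with PSMB9 among those of H3255 despite its trace level in that line. Without A549 C36 replicate 3, vehicle replicate 2 or vehicle replicate 3 they were 1, 1 and 5. For H3255 the count was also 1 without A549 C36 replicate 2, H3255 C36 replicate 1 or 2, or H3255 vehicle replicate 1 or 3, and for H1975 it was 2 without H1975 C36 replicate 2 or 3.

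**Figure D3:**
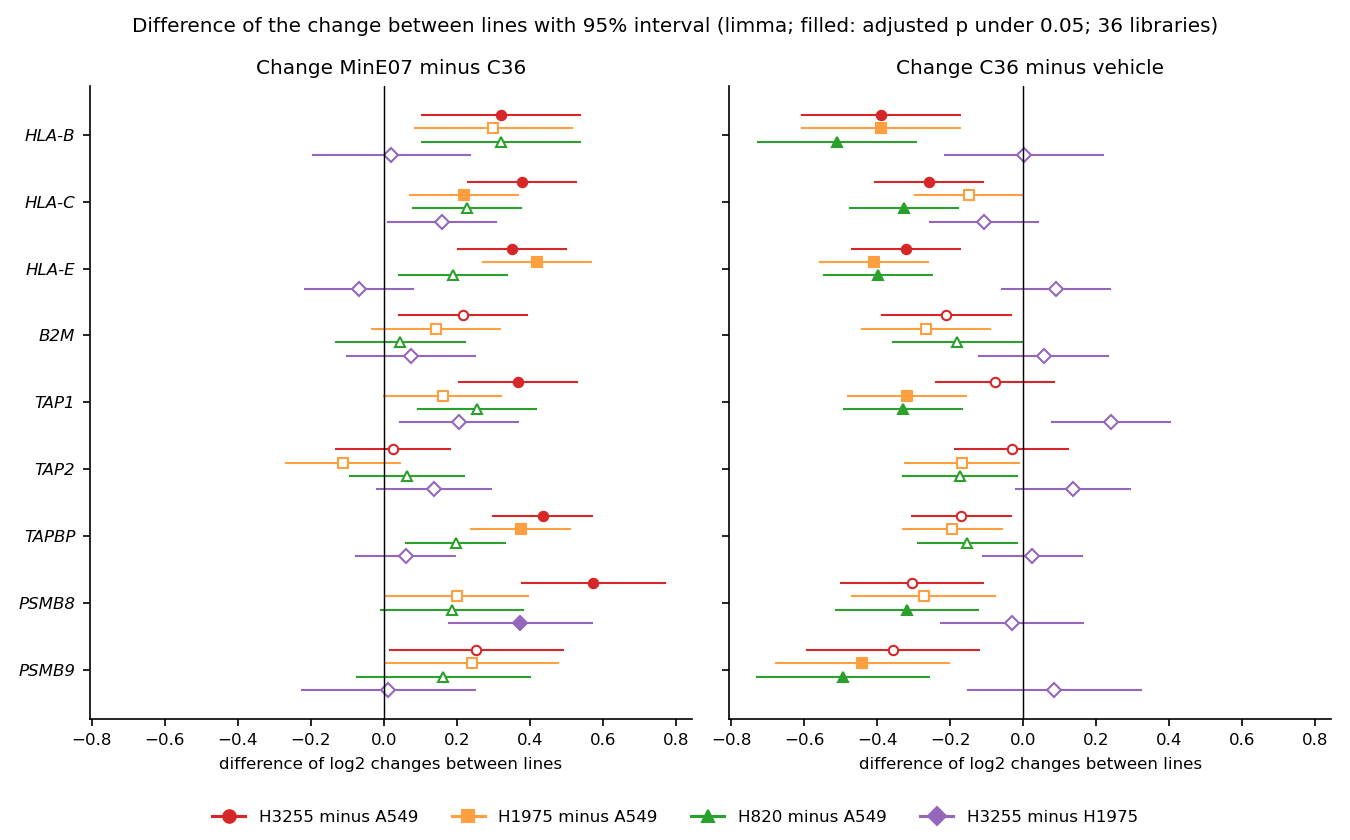
Difference between 2 lines in the log2 change (horizontal axis) for each gene, with the 95% interval from limma over 36 libraries; filled symbols have an adjusted p under 0.05. On the left, PSMB8 and TAPBP of H3255 lie farthest above A549. On the right, every estimate against A549 lies below 0, and the differences between H3255 and H1975 are all open symbols. PSMB9 was at trace levels in H3255, so its symbols for pairs with H3255 are no test of a change there.

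Genes around the pathway were called in both directions in H3255 with MinE07 against C36, as were genes in general: 37.9% of all genes were called, 17.4% higher and 20.5% lower, and nothing particular to a list is read from the counts that follow. Of 8 proteasome partners 2 rose and 3 fell, with a median of -0.11 log2. PSMB10, the remaining catalytic subunit of the immunoproteasome, rose by 0.49 ± 0.09 (2.48 to 3.69 FPKM on average, adjusted p = 0.00108), and PSME1, a subunit of the PA28 activator, rose by 0.28 ± 0.04 (adjusted p = 0.000247), a call lost from unnumbered entries or the highest copy (adjusted p up to 0.553). PSMB5 and PSMB6, the standard subunits that PSMB8 and PSMB9 displace, fell by 0.22 ± 0.04 (124 to 107 FPKM, adjusted p = 0.00186) and 0.18 ± 0.03 (adjusted p = 0.0018), and PSME3 fell by 0.15 ± 0.03 (adjusted p = 0.00357). PSMB7, which PSMB10 displaces, was at -0.11 ± 0.04 (adjusted p = 0.0617), and PSME2 at -0.10 ± 0.05 (adjusted p = 0.113). Against vehicle PSMB7 also fell, by 0.23 ± 0.04 (adjusted p = 0.00138). In FPKM, PSMB5 at 107 remained far above PSMB8 at about 4.09 in the MinE07 libraries.

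Of 4 other class I heavy chains tested in H3255, 2 rose and 1 fell, with a median of 0.11. MICA, a stress ligand of the NKG2D receptor, fell by 0.20 ± 0.05 (adjusted p = 0.0118), a call lost with no filter or from the highest copy (adjusted p up to 0.0628). MR1, which presents vitamin metabolites, rose by 0.16 ± 0.06 (adjusted p = 0.0462), a call kept in 3 of 9 cases when 1 library was left out (adjusted p up to 0.157, without MinE07 replicate 2). Of 10 peptide loading and trimming genes 4 rose and 2 fell, with a median of 0.06. TAPBPL, a relative of tapasin, rose by 0.29 ± 0.06 (adjusted p = 0.00202), and the trimming peptidases ERAP1 and ERAP2 rose by 0.22 ± 0.06 (adjusted p = 0.0102) and 0.23 ± 0.07 (adjusted p = 0.0206). ERAP2 kept its call in 5 of 9 cases when 1 library was left out (adjusted p up to 0.0744, without C36 replicate 1). With MinE07 against vehicle, ERAP1 was not called in H3255.

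Of 16 regulators tested in H3255, 4 rose and 3 fell, with a median of 0.04. STAT2 rose by 0.52 ± 0.04 (adjusted p = 2.63e-06), while IRF9, its partner in the interferon-stimulated factor ISGF3, fell by 1.21 ± 0.11 (10.9 to 4.40 FPKM, adjusted p = 7.78e-05). IRF9 was also higher with C36 than with vehicle, at 10.9 against 5.86 FPKM (0.83 ± 0.11 log2, adjusted p = 0.0348), a call kept in 4 of 9 cases (adjusted p up to 0.1, without vehicle replicate 2). IRF1 was at 0.01 ± 0.08 (adjusted p = 0.921). NLRC5, the class I transactivator, was below the filter in H3255, at 0.0597 FPKM with C36 and 0.0376 with MinE07. The class II list had 0 of 5 higher and 1 lower, HLA-DQB1, by 0.21 ± 0.04 (adjusted p = 0.00161), with a median of -0.04. The HLA-DQB1 call was lost in the fit of all 36 libraries (adjusted p = 0.402). The median of all genes tested was -0.01.

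In H1975, with MinE07 against C36, 6 of 6 tested class II genes rose, beside 9.56% of all genes called higher, with a median of 0.42 log2 against -0.01 over all genes. The count stayed at 6 whichever library was left out. It was 4 of 4 tested from the highest copy and 2 of 2 from unnumbered entries, where fewer class II genes passed the filter. It was 4 of 6 in the fit of all 36 libraries, whose filter passed a partly different set. That fit called HLA-DQB1 lower, at -0.50 log2 (adjusted p = 0.0461). HLA-DQB1 lay below the filter in the H1975 fit and passed that of the 36 libraries through other lines. In the H1975 fit with no filter its change was not called (adjusted p = 0.532). HLA-DRA, a class II chain, rose by 0.71 ± 0.04 (3.27 to 5.67 FPKM, adjusted p = 1.57e-05) and HLA-DMA, which helps exchange class II peptides, by 0.49 ± 0.05 (adjusted p = 0.000273). The class II transactivator CIITA was among the 6, at 0.33 ± 0.06 (adjusted p = 0.00538). All 6 also rose against vehicle, and HLA-DRA was lower with C36 than with vehicle, by 0.32 ± 0.04 (adjusted p = 0.025, up to 0.134 without C36 replicate 3 and kept in 4 of 9 cases). Other markers moved with this result and with the rise of HLA-E and TAPBP. The summed leukocyte markers, of which 3 of 8 reached 1 FPKM, lay between 7.87 and 8.37 FPKM in the C36 libraries, 8.70 and 9.32 with vehicle and 9.90 and 10.6 with MinE07. The summed fibroblast markers, of which PDGFRB and COL1A1 (2 of 5) reached 1 FPKM, lay between 5.97 and 6.77, 5.81 and 6.38, and 7.75 and 7.86. The part of these markers in the result was not tested.

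The other lists held the following calls in H1975 between MinE07 and C36, beside 21.4% of all genes called (9.56% higher and 11.9% lower). Nothing particular to a list is read from these counts. Of 8 proteasome partners 1 rose and 1 fell (median -0.07): PSMB10 by 0.25 ± 0.07 (adjusted p = 0.026) and PSME3 by -0.17 ± 0.03 (adjusted p = 0.00192), with PSME1 at 0.10 ± 0.04 (adjusted p = 0.0858) and PSME2 at 0.03 ± 0.06 (adjusted p = 0.794). Of 10 loading and trimming genes 2 rose (median 0.04), ERAP1 by 0.19 ± 0.05 (adjusted p = 0.0159) and TAPBPL by 0.16 ± 0.05 (adjusted p = 0.0394), with ERAP2 at 0.10 ± 0.06 (adjusted p = 0.218). Of 6 other heavy chains 1 rose and 1 fell (median 0.03): MR1 by 0.27 ± 0.08 (adjusted p = 0.0415) and MICA by -0.29 ± 0.06 (adjusted p = 0.00653). Of 17 regulators 4 rose and 1 fell (median 0.02), led by IFNGR1, a chain of the interferon-γ receptor, at 0.38 ± 0.06 (adjusted p = 0.00117), and IRF9 at 0.29 ± 0.04 (adjusted p = 0.00112). The gene that fell was IFNGR2, the other chain of that receptor, by 0.23 ± 0.04 (adjusted p = 0.00199), a call lost from unnumbered entries (adjusted p = 0.0782). When 1 library was left out, MR1 kept its call in 4 of 9 cases (adjusted p up to 0.133 without C36 replicate 3), TAPBPL in 2 (0.123 without C36 replicate 2), ERAP1 in 6 (0.0619 without MinE07 replicate 3) and PSMB10 in 5 (0.0925 without C36 replicate 2). NLRC5 was at 0.06 ± 0.08 (adjusted p = 0.676) and IRF1 at 0.01 ± 0.05 (adjusted p = 0.914). With MinE07 against vehicle, PSMB10, ERAP1 and MR1 were not called in H1975.

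In A549, with C36 against vehicle, 4 of 17 regulators rose and none fell, beside 6.23% of all genes called and 3.7% called higher. The median of the regulators was 0.10 against 0.01 over all genes. When 1 library was left out, 1 to 8 regulators were called higher and 0 to 1 lower. NLRC5 rose by 0.48 ± 0.06 (5.48 to 7.82 FPKM, adjusted p = 0.00408) and IRF1 by 0.41 ± 0.06 (18.0 to 23.9 FPKM, adjusted p = 0.00806). NLRC5 kept its call whichever of the 9 libraries was left out, and IRF1 in 8 of 9 cases (adjusted p = 0.0505 without C36 replicate 3). With MinE07 against vehicle NLRC5 was at 0.35 ± 0.06 (adjusted p = 0.0485), a call kept in 1 of 9 cases. The summed leukocyte markers lay between 2.05 and 2.32 FPKM with vehicle and 1.97 and 2.42 with C36, ranges that overlap, with CD3E and MS4A1 at 0 in every A549 library. Of the other lists 1 of 6 heavy chains rose (MR1, 0.31 ± 0.07, adjusted p = 0.0254), and 1 of 10 loading and trimming genes rose (ERAP1, 0.20 ± 0.05, adjusted p = 0.0365), with ERAP2 at 0.23 ± 0.08 (adjusted p = 0.122). None of 8 proteasome partners was called, and 4 had an unadjusted p under 0.05, beside 23.6% of all genes. PSMB10 was at 0.25 ± 0.07 (adjusted p = 0.0651), PSME1 at 0.25 ± 0.07 (adjusted p = 0.0767) and PSME2 at 0.22 ± 0.07 (adjusted p = 0.0884). MR1 and ERAP1 kept their call in 4 and 1 of 9 cases, and the worst case of each was without C36 replicate 3, at adjusted p = 0.0992 and 0.133.

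In H820 limma called 0 genes of the 5 lists between MinE07 and C36. At an unadjusted p under 0.05 there was 1 of 6 other heavy chains, 0 of 9 loading genes, 0 of 8 proteasome partners, 1 of 16 regulators and 1 of 2 class II genes. The share of all genes at that p was 10.6%. NLRC5 followed the same order of lines with vehicle as B2M, TAP2, PSMB8 and PSMB9, while HLA-B, HLA-C, HLA-E, TAP1 and TAPBP had other orders. NLRC5 averaged 5.48 FPKM in A549, 4.08 in H1975, 0.623 in H820 and 0.0537 in H3255. Its part in the levels of the 9 genes was not tested. IRF1 averaged 18.0, 5.43, 5.87 and 1.88 FPKM in A549, H1975, H820 and H3255.

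**Figure D4:**
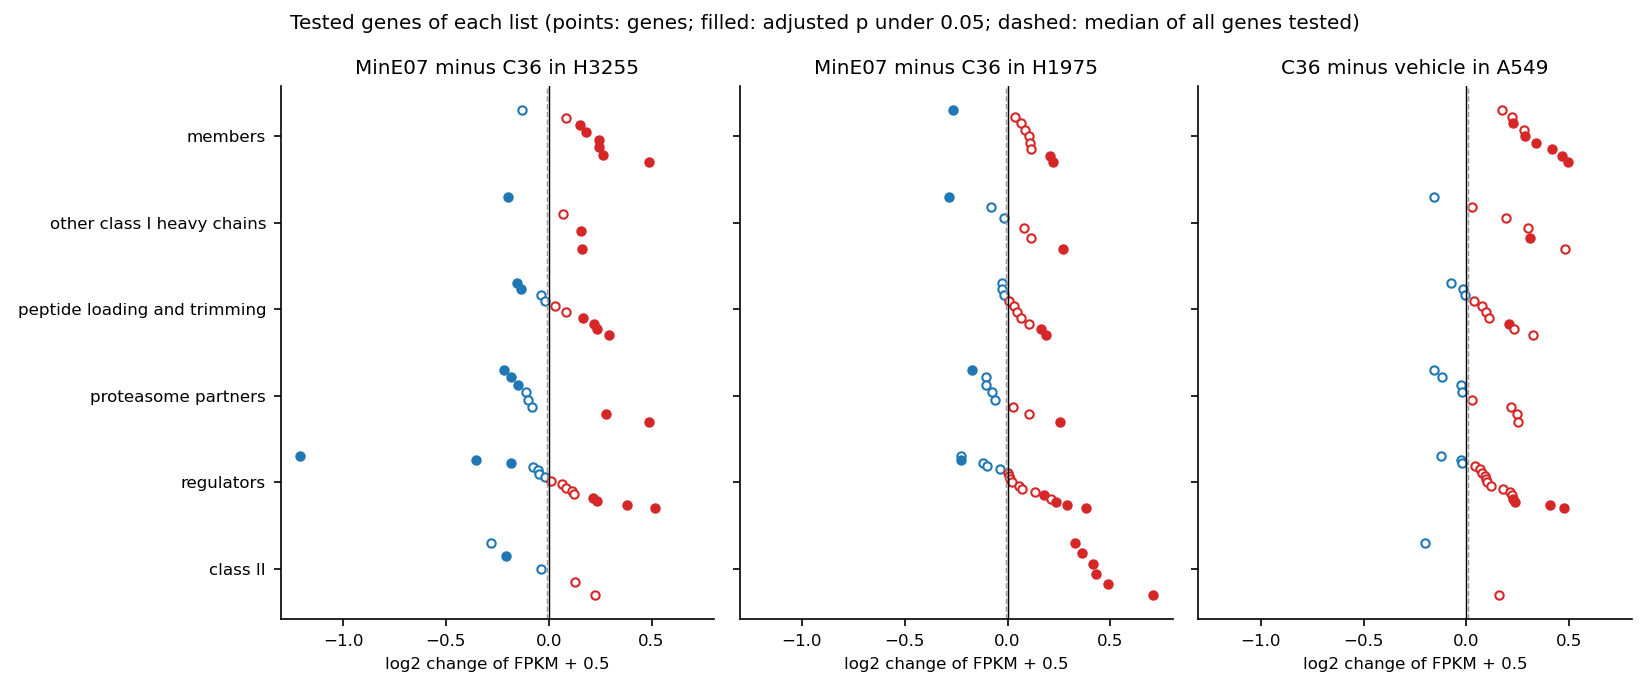
Log2 change of FPKM + 0.5 (horizontal axis) of every tested gene in the 9 class I genes ("members") and in 5 related lists, for 3 comparisons; points are genes, filled points have an adjusted p under 0.05, and the dashed line is the median of all genes tested. In H3255 the proteasome partners split, with PSMB10 and PSME1 to the right; in H1975 all 6 class II points are filled and right of 0; in A549 all 9 class I genes lie right of 0 with C36 against vehicle.

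Among the genes outside the 9 whose levels, less their line's mean, most followed the mean of the 9 over the 36 libraries were LGALS3BP (r = 0.948), MDK (0.889), WARS1 (0.888) and NUB1 (0.857), out of 10364 genes with a mean of at least 1 FPKM in every line. They were picked for this likeness, so the values are a description, and the libraries share lines and treatment groups. LGALS3BP averaged 96.9 ± 2.22 FPKM with vehicle, 99.5 ± 2.43 with C36 and 112 ± 5.23 with MinE07 in H3255. In A549 it averaged 247 ± 24.0, 298 ± 8.05 and 269 ± 8.45, highest with C36 as the class I genes were.

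The annotated copies that carried the reads differed between lines for the variable genes. GRCh38 holds alternate sequences of the major histocompatibility complex, and the files number further copies of a gene. For HLA-B, copy 2 held 56.4% of the summed FPKM in H3255, 60.0% in H1975 and 77.9% in H820, while in A549 copy 3 held 35.7%, copy 5 32.7% and copy 6 20.9%. For HLA-C, copy 3 held 60.4% in H3255, copy 2 held 69.0% in H820 and copy 4 held 49.9% in A549, and in H1975 no copy exceeded 19.8%. HLA-E, TAP1, TAPBP and PSMB8 were divided between copies in much the same way in all lines.

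The order of lines for HLA-B, HLA-C and TAP2 depended on the copy read. Read from the unnumbered entry alone, HLA-C was 1.78 log2 lower in H3255 than in H1975 in place of 0.78 higher, and HLA-B was 1.67 log2 higher in H820 than in A549 in place of 1.02 lower. What share of the level differences between lines comes from read assignment was not tested.

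**Figure D5:**
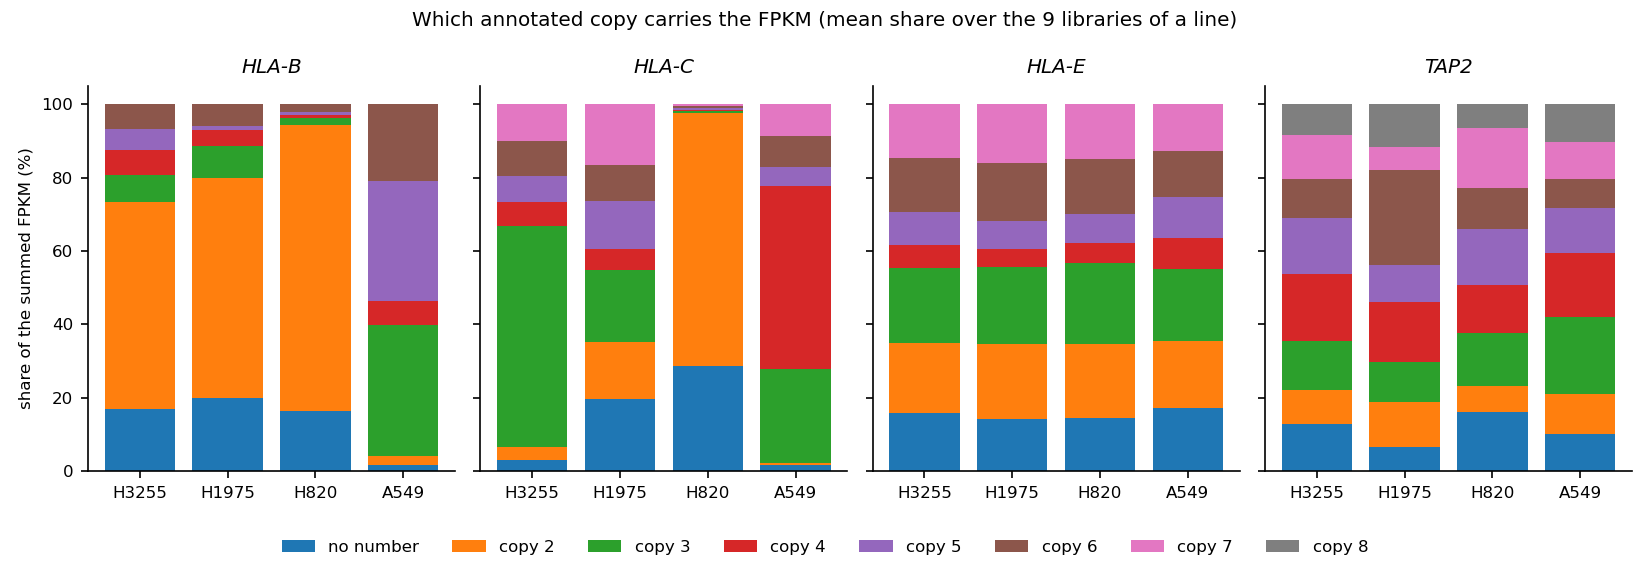
Mean share of a gene's summed FPKM held by each annotated copy (vertical axis, percent) over the 9 libraries of a line, for HLA-B, HLA-C, HLA-E and TAP2. The leading copy of HLA-B is copy 2 in H3255, H1975 and H820 and copy 3 in A549, that of HLA-C changes with the line, and HLA-E is divided alike in all 4 lines.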

How the data were processed

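The authors deposited 1 table per library with FPKM per annotated gene. Per the labels' protocols, polyadenylated RNA was made into stranded libraries and read from both ends over 100 bases. HISAT2 and Cuffdiff and the builds GRCh38.p12 and hg38 are named, per the submitters' processing notes. Neither their versions nor their strand settings were found in the labels or headers. FPKM are not counts, so no count model was used, and a fold change on this scale understates the change of low genes.

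Of 68271 entries per file, 1874 without a name and 31 that share repeated names were left out (at most 0.00494% of a library's sum). Copies of every gene were then summed. Values were taken as log2(FPKM + 0.5), genes with a mean of at least 1 FPKM in a fit were kept, and groups were compared with limma 3.58.1 (intensity trend, robust moderation, statmod 1.5.0, R 4.3.3), two-sided, with Benjamini-Hochberg adjustment over all genes of the fit and a threshold of 0.05. Treatments were fitted within each line (9 libraries), lines over 12 vehicle libraries, and differences between lines over all 36. The p-values measure the spread between these libraries. The fits within a line were tested on simulated data, for MinE07 against C36 only, and the other fits were not. Python 3.11.15, pandas 2.3.3, NumPy 2.4.6 and matplotlib 3.10.9 were used.

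The 9 genes, the related lists and the comparisons were chosen with earlier results of these data known. Named genes were the 9, up to 2 called genes per list and comparison with the largest change, NLRC5, IRF1, PSMB10, ERAP1, ERAP2, PSME1 and PSME2 always, and the most similar genes. Some genes that the rule names are not reported here, though the list counts and medians include them. PSMB5, PSMB6, PSMB7 and PSME3 in H3255 and CIITA and IFNGR2 in H1975 were added after their values were seen. Alternatives were pseudocounts of 0.1 and 1, no filter, rescaling by medians of ratios, unnumbered entries or the highest copy in place of the sum, a replicate block, all 36 libraries in 1 fit, and leaving out each library.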

Additional observations from a re-analysis of the deposited data

Results flagged for a closer look

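Between 2 lines, the change of a class I gene differed in 23 of the 72 differences tested (4 pairs of lines, 2 contrasts, 9 genes), by limma interaction terms with an adjusted p under 0.05 over all genes. The 72 include PSMB9 in pairs with H3255, where it was at trace levels, and none of those was among the 23.

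For MinE07 against C36, the log2 change was larger in H3255 than in A549 by 0.32 for HLA-B, 0.38 for HLA-C, 0.35 for HLA-E, 0.37 for TAP1, 0.44 for TAPBP and 0.57 for PSMB8. It was larger in H1975 than in A549 by 0.22 for HLA-C, 0.42 for HLA-E and 0.38 for TAPBP. PSMB8 rose more in H3255 than in H1975, by 0.37. In A549 all 9 estimates of this contrast were below 0 without a call, and in H3255 7 of 8 were above 0. The HLA-B difference was lost (adjusted p from 0.0527 to 0.0837) without A549 C36 replicate 3, A549 MinE07 replicate 1 or 3, H3255 C36 replicate 1 or H3255 MinE07 replicate 3. The HLA-C difference of H1975 was kept in 3 of 12 cases, those without A549 C36 replicate 1, A549 MinE07 replicate 2 or H1975 MinE07 replicate 3, with adjusted p up to 0.121 in the others.

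For C36 against vehicle, H3255 minus A549 was -0.39 for HLA-B, -0.26 for HLA-C and -0.32 for HLA-E. H1975 minus A549 was -0.39 for HLA-B, -0.41 for HLA-E, -0.32 for TAP1 and -0.44 for PSMB9. H820 minus A549 was -0.51 for HLA-B, -0.33 for HLA-C, -0.40 for HLA-E, -0.33 for TAP1, -0.32 for PSMB8 and -0.49 for PSMB9. HLA-E in each line and HLA-B, HLA-C, TAP1 and PSMB9 in H820 kept their call in 12 of 12 cases. HLA-B and HLA-C of H3255 kept it in 4 and 2 cases, HLA-B, TAP1 and PSMB9 of H1975 in 3, 9 and 6, and PSMB8 of H820 in 2. Each of these was lost without A549 C36 replicate 3, vehicle replicate 2 or vehicle replicate 3, with adjusted p from 0.0586 to 0.121.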

How the results depend on the processing

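The number of class I genes called, out of those tested, moved by more than 1.5 times under these settings. Reading a gene from its unnumbered entry alone, which leaves fewer of them above the filter, gave 3 for MinE07 against C36 in H3255 (6 with summed copies), 4 for MinE07 against vehicle in H3255 (7), 2 in H1975 (5), 3 for C36 against vehicle in A549 (6), and for differences of that change 1 for H3255 minus A549 (3), 2 for H1975 minus A549 (4) and 2 for H820 minus A549 (6). It gave 3 for H3255 minus A549 in MinE07 against C36 (6) and 0 for H3255 minus H1975 (1). The highest copy gave 3 for MinE07 against C36 in H3255, 3 for MinE07 against vehicle in H1975, 0 for H3255 minus A549 in C36 against vehicle and 0 for H3255 minus H1975 in MinE07 against C36. No filter gave 3 for MinE07 against vehicle in H1975, 0 for C36 against vehicle in A549, and 1 and 2 for H3255 and H1975 minus A549 in that change. All 36 libraries in 1 fit gave 2 for C36 against vehicle in H3255 (0), 1 for MinE07 against C36 in A549 (0) and 4 for MinE07 against vehicle in A549 (0). The cause was not tested.

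With a replicate block the count was 2 for C36 against vehicle in A549, 1 and 2 for H3255 and H1975 minus A549 in that change, and 2 for H3255 minus H1975 in MinE07 against C36. The labels do not say that a replicate number marks a shared experiment, so the numbers were not taken to pair the libraries. Deviations of same-numbered libraries correlated between -0.169 and 0.212 within lines, over 0.1 in 0, 1, 3 and 4 of 9 pairs in A549, H1975, H3255 and H820. Among pairs with other numbers 2, 4, 4 and 1 of 18 were over 0.1. In H820 the median was 0.0531 for the same number and -0.0285 for other numbers, so the correlations do not settle whether numbers pair libraries there.

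Leaving out 1 library gave 5 to 6 calls for MinE07 against C36, 6 to 7 against vehicle and 0 to 0 for C36 against vehicle in H3255, and 3 to 4, 3 to 6 and 0 to 1 in H1975. It gave 0 in every case in H820, and 0 to 0, 0 to 6 and 0 to 9 in A549. Differences between lines gave 5 to 7, 2 to 4, 0 to 0 and 1 to 2 for MinE07 against C36 (H3255, H1975 and H820 minus A549, H3255 minus H1975) and 1 to 7, 1 to 7, 5 to 8 and 0 to 0 for C36 against vehicle. The counts between lines with vehicle did not change.

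Signs turned in 7 called differences between lines with vehicle. From unnumbered entries HLA-C was -1.78 (summed 0.78) for H3255 minus H1975, 1.30 (-2.26) for H1975 minus A549 and 3.71 (-0.31) for H820 minus A549, TAP2 was -0.62 (0.41) for H1975 minus H820, and HLA-B was 1.67 (-1.02) for H820 minus A549. From the highest copy HLA-B and HLA-C of H820 minus A549 were 0.13 and 0.18. Of 3842 values of single genes under an alternative, 3547 kept direction and call, 168 lost the call, 44 gained one and 76 changed sign without a call. PSMB9 and NLRC5 in H3255 lie near the lower end of the scale, and the part of depth in this was not tested.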

Other observations

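TAP2 was the class I gene that least followed the other 8. The correlation of its level, less the line mean, with the mean of the other 8 over the 36 libraries was 0.206, against 0.725 (TAPBP) to 0.909 (HLA-E) for the rest. Within lines of 9 libraries each it was -0.796 in H1975, -0.612 in H820, 0.0508 in H3255 and 0.88 in A549. These are descriptions over libraries that share lines and treatments. In H3255 TAP2 was highest with C36, at 2.32 to 2.58 FPKM against 1.93 to 2.36 with vehicle and 2.06 to 2.46 with MinE07.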
